A study of Mus musculus with 42 samples.

Results

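The transcripts described here came from 10 genes, Shc3, Hipk2, Acvr2b, Faxc, Pdpr, Aff2, Slc9a7, Klhl11, Zkscan16 and Ghrl. They were chosen by their measured levels in the lateral habenula (LHb), which were lowest in the 3 libraries of naive mice with low forced swim test (FST) scores. All 10 were found by symbol, among 37410 genes in the LHb table and 40905 genes in the table of 5 other brain regions, and all 10 passed the filter on low counts in every fit. Poly-A RNA of mouse brain was sequenced in 42 libraries forming 14 groups of 3. The 4 LHb groups were mice under chronic restraint stress (CRS) with high FST scores (immobility above 110 s), CRS mice with low FST scores (50 to 110 s), naive mice with high FST scores (50 to 80 s) and naive mice with low FST scores (below 50 s). CRS and naive groups without an FST class were sequenced from 5 other regions. These were vHippo, the ventral hippocampus; NAc, the nucleus accumbens; VTA, the ventral tegmental area; LH, the lateral hypothalamus; and mPFC, the medial prefrontal cortex. All mice swam 2 days before sacrifice, so no group is free of swim stress. Strain, sex and age are not given in the sources used here, and whether each replicate is its own animal is not stated, so p-values measure the spread between these samples, which may be technical. Nor is it stated whether the regions came from the same mice, and tests between regions treat their libraries as independent. Some libraries held transcripts of other tissue or few markers of their own region, and those that touch a result are named beside it.

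The genes do not belong to the same pathway. Shc3 encodes an adaptor found mainly in neurons that links activated Trk and other receptor tyrosine kinases to Ras. Hipk2 is a nuclear kinase that acts on transcription factors and corepressors. Acvr2b is a type II receptor for activins and related ligands, which pairs with a type I receptor to phosphorylate Smad proteins. The LHb, in the epithalamus, sends excitatory axons to midbrain targets that include GABA neurons inhibiting dopamine cells, and its activity is studied in relation to aversion and depression-like behaviour.

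Promoters are shown to let the reader compare the sequence just upstream of each start. The genes share low values in naive low FST because they were chosen for them, and shared regulation was not tested. RefSeq promoter windows (GRCm38.p6, 250 bases before to 50 after a start) were matched for 8 of the 10 genes, Shc3 and Zkscan16 being the others, with 12 windows in all, since Ghrl has 4 starts and Hipk2 has 2. The 6 below were chosen to show the range, from the GC-rich start of Hipk2 to that of Ghrl. They lie at chr6:38876141-38876440 on the minus strand (Hipk2), chr9:119401928-119402227 on the plus strand (Acvr2b), chr8:111094495-111094794 on the plus strand (Pdpr), chrX:20291778-20292077 on the minus strand (Slc9a7), chr11:100472733-100473032 on the minus strand (Klhl11) and chr6:113719862-113720161 on the minus strand (Ghrl). Each is written 5′ to 3′ along the gene, with capitals marking GC boxes (GGGCGG on either strand), TGACGT on either strand (extended to the whole palindrome TGACGTCA where that is present) and CCAAT on either strand.
Hipk2: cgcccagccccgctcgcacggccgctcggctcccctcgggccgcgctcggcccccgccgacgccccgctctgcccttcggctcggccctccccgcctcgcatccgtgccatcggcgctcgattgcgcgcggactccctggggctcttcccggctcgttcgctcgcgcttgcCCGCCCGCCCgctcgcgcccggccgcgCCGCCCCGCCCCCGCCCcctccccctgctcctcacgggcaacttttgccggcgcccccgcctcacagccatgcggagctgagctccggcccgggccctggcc
Acvr2b: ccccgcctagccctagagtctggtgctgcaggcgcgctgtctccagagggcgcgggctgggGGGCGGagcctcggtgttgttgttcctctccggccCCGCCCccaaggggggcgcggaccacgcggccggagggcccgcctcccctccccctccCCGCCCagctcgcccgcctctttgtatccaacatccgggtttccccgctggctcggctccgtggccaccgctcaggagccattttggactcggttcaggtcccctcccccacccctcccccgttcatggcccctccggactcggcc
Pdpr: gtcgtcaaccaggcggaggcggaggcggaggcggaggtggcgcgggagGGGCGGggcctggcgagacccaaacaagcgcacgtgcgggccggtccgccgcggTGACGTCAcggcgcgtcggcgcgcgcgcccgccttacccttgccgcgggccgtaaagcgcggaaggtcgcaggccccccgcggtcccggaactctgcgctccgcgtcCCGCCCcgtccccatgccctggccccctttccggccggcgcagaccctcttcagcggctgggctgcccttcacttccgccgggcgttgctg
Slc9a7: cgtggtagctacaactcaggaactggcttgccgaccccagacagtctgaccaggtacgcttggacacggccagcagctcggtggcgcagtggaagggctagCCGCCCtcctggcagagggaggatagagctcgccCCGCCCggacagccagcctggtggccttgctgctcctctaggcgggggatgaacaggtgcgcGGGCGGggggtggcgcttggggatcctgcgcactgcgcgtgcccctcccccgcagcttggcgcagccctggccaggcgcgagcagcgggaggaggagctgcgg
Klhl11: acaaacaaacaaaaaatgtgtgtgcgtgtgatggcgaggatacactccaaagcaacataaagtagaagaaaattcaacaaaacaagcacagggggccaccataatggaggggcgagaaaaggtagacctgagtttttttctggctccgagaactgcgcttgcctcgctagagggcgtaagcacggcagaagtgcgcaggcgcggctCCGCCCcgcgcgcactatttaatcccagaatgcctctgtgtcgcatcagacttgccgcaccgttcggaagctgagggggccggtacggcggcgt
Ghrl: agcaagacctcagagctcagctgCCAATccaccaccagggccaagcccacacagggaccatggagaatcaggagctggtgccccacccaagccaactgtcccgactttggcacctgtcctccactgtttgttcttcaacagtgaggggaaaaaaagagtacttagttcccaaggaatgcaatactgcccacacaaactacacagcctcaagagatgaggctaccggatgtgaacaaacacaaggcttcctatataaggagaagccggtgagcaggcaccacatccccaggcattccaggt
A GC box stood in 7 of the 12 windows, and in a window of each of the 8 genes other than Ghrl, against 35.7% of 32851 promoters of the same length. The Hipk2 window shown had 48 CpG dinucleotides and that of Pdpr 47, whereas the Ghrl window shown had 3 and the median over all promoters was 7. The second Hipk2 window held 1 CpG and no GC box, and the other 3 Ghrl windows held 1 CpG each. TGACGTCA, the palindrome bound by CREB, was present in Pdpr and in 1.79% of promoters. CCAAT was present in the Ghrl window shown and in 37.4% of promoters, and the sequence TGANTCA, bound by AP-1, was present in another Ghrl window, at chr6:113717643-113717942, and in 7.81%. The E box CACGTG was present in Faxc and Pdpr, and in 7.15% of promoters. Both strands were searched, TGACGT lies within TGACGTCA, and a match is only a run of letters in a window. TATAAA, found in 13.6% of promoters, had no match in the 12 windows.

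The deposited unit for a level is FPKM, fragments scaled to transcript length and to library size, which allows levels to be set side by side between genes. Shc3, at chr13:51431041-51569487 on the minus strand (GRCm38, 12 exons in its longest coding transcript), had 7.47, 7.04 and 5.73 FPKM in CRS high FST, 6.71, 7.55 and 6.88 FPKM in CRS low FST, 6.96, 7.30 and 5.98 FPKM in naive high FST and 0.814, 0.861 and 0.787 FPKM in naive low FST. The other 9 libraries lay close together, far above the 3 naive low libraries. Their mean was 6.85 ± 0.627 FPKM (SD, n = 9), against 0.821 ± 0.0376 FPKM in naive low FST (SD, n = 3), an 8.34-fold ratio of means. Hipk2, at chr6:38694390-38876165 on the minus strand, had 12.4, 15.2 and 11.4 FPKM in CRS high FST, 14.0, 12.5 and 10.9 FPKM in CRS low FST, 10.8, 11.1 and 8.98 FPKM in naive high FST and 2.28, 2.48 and 1.91 FPKM in naive low FST. Its 3 lowest libraries were again those of the naive low group, at a mean of 2.23 ± 0.289 FPKM (SD, n = 3). Acvr2b, at chr9:119402118-119434995 on the plus strand, had 2.23, 2.44 and 2.10 FPKM in CRS high FST, 1.76, 2.02 and 2.25 FPKM in CRS low FST, 2.42, 1.89 and 2.02 FPKM in naive high FST and 0.373, 0.394 and 0.427 FPKM in naive low FST. The ratio of the other 9 libraries over naive low FST was 5.36 for Hipk2 and 5.35 for Acvr2b. These differences chose the genes, so they are a description and carry no test.

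Faxc is named after a Drosophila gene for failed axon connections, and Pdpr is the regulatory subunit of the phosphatase that activates pyruvate dehydrogenase. Faxc (chr4:21931329-21996839, plus strand) lay between 9.19 and 12.3 FPKM in the other 9 libraries, against 2.94, 3.78 and 3.06 FPKM in naive low FST. Pdpr (chr8:111094630-111137074, plus strand) lay between 6.85 and 7.91 FPKM in the other 9 libraries, against 2.64, 2.81 and 2.50 FPKM in naive low FST. These were the smallest ratios of the 10 genes, 3.11 for Faxc and 2.79 for Pdpr, and the Pdpr libraries outside naive low FST lay at 7.39 ± 0.440 FPKM (SD, n = 9).

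The other 5 genes varied more outside the naive low group. Aff2 (chrX:69360294-69868037, plus strand), the mouse counterpart of the fragile XE gene and an AF4/FMR2 family member linked to transcription elongation, had 4.55, 4.49 and 2.87 FPKM in CRS high FST, 1.81, 3.56 and 3.04 FPKM in CRS low FST, 3.20, 3.00 and 3.59 FPKM in naive high FST and 0.535, 0.438 and 0.380 FPKM in naive low FST. Slc9a7 (chrX:20105754-20291807, minus strand), a cation-proton exchanger of the trans-Golgi network, had 8.99, 10 and 8.03 FPKM in CRS high FST, 1.92, 9.97 and 8.90 FPKM in CRS low FST, 7.63, 8.53 and 8.11 FPKM in naive high FST and 0.652, 0.646 and 0.645 FPKM in naive low FST. Replicate 1 of CRS low FST was low for both, and lay nearer to the naive low libraries than to the rest for Slc9a7. Klhl11 (chr11:100462614-100472741, minus strand), a kelch protein that serves as a Cul3 ubiquitin ligase adaptor, had 17.0, 18.8 and 15.8 FPKM in CRS high FST, 2.56, 18.2 and 17.2 FPKM in CRS low FST, 13.9, 18.2 and 16.9 FPKM in naive high FST and 1.14, 1.56 and 1.06 FPKM in naive low FST. Zkscan16 (chr4:58943628-58958355, plus strand), a zinc finger protein of the KRAB and SCAN class, had 28, 33.8 and 30.5 FPKM in CRS high FST, 11, 32.7 and 27.4 FPKM in CRS low FST, 29.3, 29.4 and 28.5 FPKM in naive high FST and 4.29, 5.09 and 4.02 FPKM in naive low FST. The same CRS low library was again the lowest outside naive low FST for both. Ghrl (chr6:113716119-113719880, minus strand), the precursor of ghrelin, a hormone made chiefly in the stomach, had 0.855, 2.37 and 1.76 FPKM in CRS high FST, 0.995, 2.22 and 1.82 FPKM in CRS low FST, 2.2, 1.79 and 1.26 FPKM in naive high FST and 0.133, 0.0589 and 0.0743 FPKM in naive low FST. Its naive low values rested on 13, 5 and 6 reads, against 55 to 176 reads in the other 9 libraries. The ratios of means were 7.41 for Aff2, 12.4 for Slc9a7, 12.3 for Klhl11, 6.23 for Zkscan16 and 19.1 for Ghrl.

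**Figure D1:**
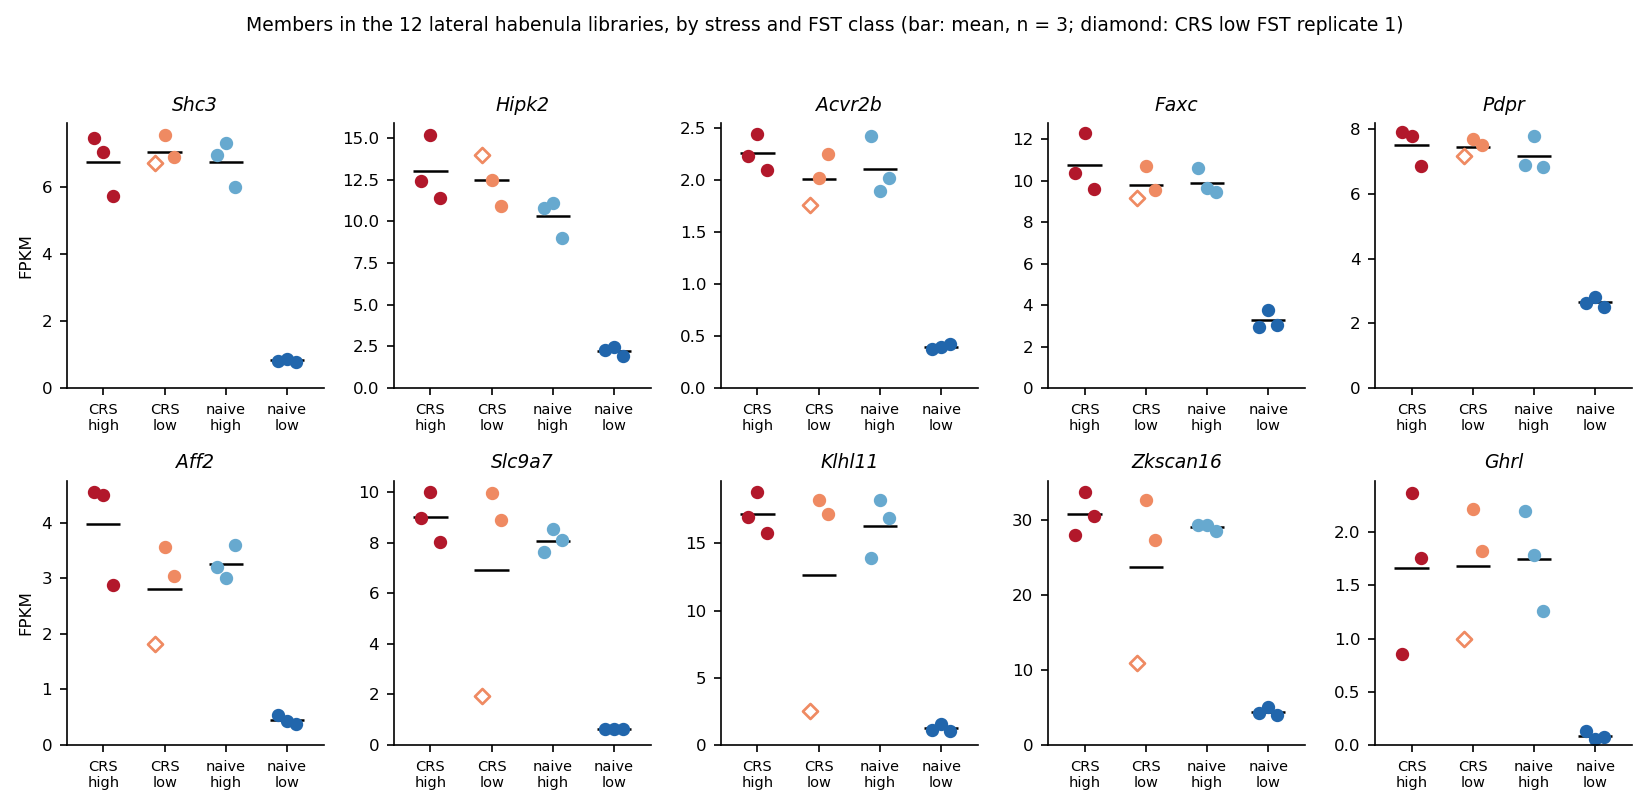
FPKM of each gene in the 12 LHb libraries by group (points: libraries, bars: group means, n = 3, axes from 0). In every panel the 3 naive low FST points lie below the other 9, and the open diamond, CRS low FST replicate 1, drops towards them for Slc9a7 (1.92 FPKM), Klhl11 (2.56 FPKM) and Zkscan16 (11 FPKM).

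All 10 genes had their 3 naive low libraries below the other 9, which the choice fixed. Over all 23266 genes tested this held for 4.49%, or 1045 genes, while 424 genes lay the other way round. The gap between the highest naive low library and the lowest of the other 9, on log2 CPM (counts scaled to library size by TMM), was 2.58 for Shc3, the second largest of all genes. It was 1.89 for Hipk2 (rank 7), 1.81 for Acvr2b (rank 9), 1.66 for Aff2 (rank 11), 1.4 for Slc9a7 (rank 19), 1.29 for Faxc (rank 22), 1.23 for Pdpr (rank 25), 1.14 for Ghrl (rank 28) and 1.10 for Zkscan16 (rank 32). Klhl11 had the smallest gap of the 10, 0.67 at rank 82, between Glra1 at 0.67 and 9930111J21Rik1 at 0.66, neither of which belongs to the set. A gap above 1 was found for 39 genes, 9 of them from this set. The largest outside it were those of the processed pseudogene Gm18609 (2.88), Gm15893 (2.57) and ENSMUSG00000121184 (2.2). Picked after their values were seen, the others included the nuclear RNA Malat1 (1.54), the transcription factor genes Lcor (1.95) and Onecut1 (1.48), and the potassium channel gene Kcna1 (1.27). The fitted log2 fold change of the other 3 groups over naive low FST ranged from 1.5 ± 0.089 (SE) for Pdpr to 4.12 ± 0.47 for Ghrl.

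Likeness to the mean of Shc3, Hipk2 and Acvr2b over the 12 LHb libraries was ranked over all genes, and named among those outside the set with a mean of at least 1 FPKM and a proper gene symbol (not a Gm, Rik or clone identifier). These were Herc1 (Pearson r 0.991, rank 8 of all genes), Zfp382 (0.990), Kcna1 (0.987) and Hivep2 (0.980), followed by Tcp11l1, Tro, Btrc, Birc6 and Nr2c2 (0.979 each) and Ssh2 (0.978). These libraries share the naive low group, which sets most of each r. Their ratios of means, from 1.48 for Ssh2 to 4.85 for Zfp382, were below those of Shc3, Hipk2 and Acvr2b. Within the set, r to the same mean was 0.995 for Pdpr and 0.992 for Faxc, but 0.927 for Slc9a7 and 0.892 for Klhl11, which stood at rank 372.

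The LHb tissue label was checked against 7 markers, which included Gpr151 and Pou4f1. All 7 were above 1 FPKM, and their sum was 479 to 547 FPKM in the other 9 libraries and 491 to 572 FPKM in naive low FST. Medial habenula markers were also present, at 721 to 971 FPKM in the other 9 and 746 to 886 FPKM in naive low FST. General neuron markers summed to 596 to 709 FPKM in the other 9 and 605 to 742 FPKM in naive low FST. In bulk tissue, fewer cells of a type and less RNA per cell cannot be told apart. Mitochondrial genes took 5.25% to 6.96% of counts in the other 9 libraries and 7.13% to 7.43% in naive low FST. Markers of endothelial cells and pericytes summed to 60.9 to 107 FPKM in the other 9 and 89.8 to 145 FPKM in naive low FST. Malat1, a long RNA kept in the nucleus, had 89.4 to 405 FPKM in the other 9 libraries and 31.1, 31.2 and 26.8 FPKM in naive low FST. The part of these differences in the levels of the 10 genes was not tested. Pancreas markers reached 364 to 581 FPKM in CRS high FST 2 and 3, CRS low FST 2 and naive high FST 3. Leaving those libraries out cannot change which libraries are lowest, since the choice fixed it, and the part of pancreas transcripts was not tested. Markers of the stomach, the main source of ghrelin, summed to at most 3.18 FPKM in any LHb library. Total counts were 56459734 to 79849567 per LHb library and 53143878 to 81384893 elsewhere. Reads of Ghrl cannot be told apart from those of overlapping genes on the opposite strand, since the use of strand in counting is not given in the sources used here. Of the 2 such genes, Gm26982 averaged 4.22 CPM in the other 9 libraries and 2.52 CPM in naive low FST, and Gm44033 averaged 1.4 CPM in the other 9 libraries and 0.00900 CPM in naive low FST.

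CRS low FST replicate 1 split the set in a way that the choice of genes did not use. As a share of the mean of the other 8 libraries outside naive low FST, it held 15% for Klhl11, 21.9% for Slc9a7, 36.7% for Zkscan16, 51.3% for Aff2 and 55.7% for Ghrl. For the other 5 genes it held 81.0% (Acvr2b), 89.4% (Faxc), 96.5% (Pdpr), 97.8% (Shc3) and 120% (Hipk2). It was the lowest of the 9 libraries for 6 of the 10 genes, against 15% of all genes, and lowest by more than 1 on the log2 scale for Slc9a7, Klhl11 and Zkscan16, against 0.236% of all genes. Genes outside the set with a gap to naive low FST of more than 1, leaving this library out, numbered 67. Of these, 77.6% were lowest in it and 34.3% by more than 1, so the drop is not particular to the set. Without this library the gap to naive low FST became the largest of all genes for Slc9a7 (3.27), followed by Klhl11 (2.97), while Shc3 moved to rank 7. Leaving out a library cannot narrow a gap, and the genes were chosen on low naive low values, so these ranks are only a description. CRS low FST replicate 1 carried choroid plexus transcripts at a summed 4628 FPKM. So did CRS high FST 1 (2945 FPKM), where Klhl11 had 17.0 FPKM, and naive low FST 1 (7136 FPKM), where Klhl11 had 1.14 FPKM. Whether these transcripts have a part in the low values was not tested.

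**Figure D2:**
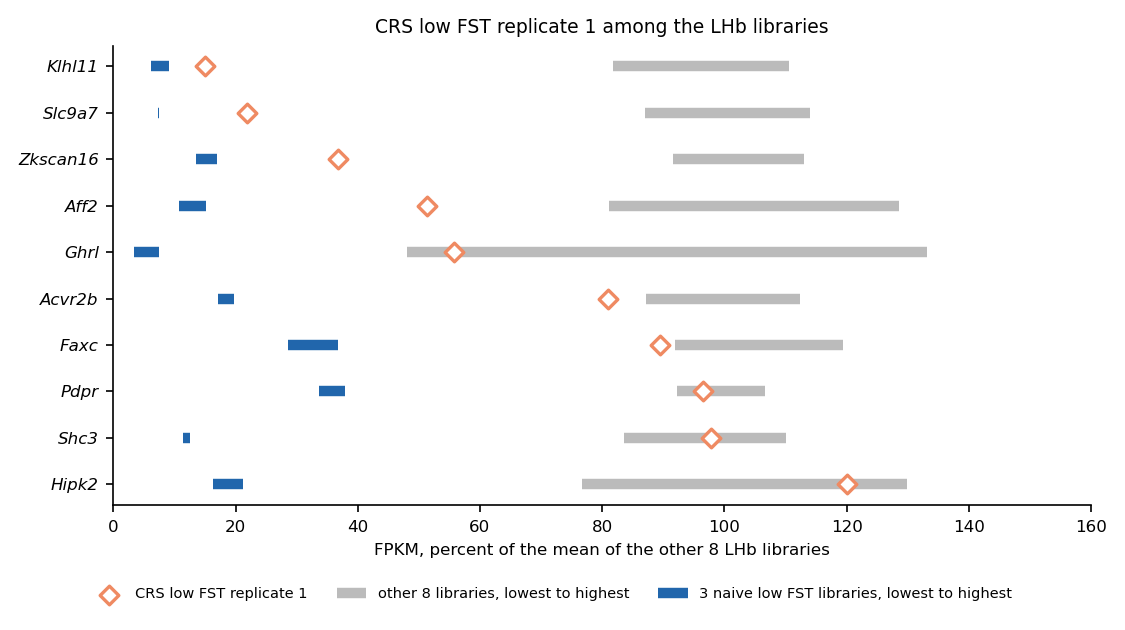
FPKM in CRS low FST replicate 1 (diamonds) as a percentage of the mean of the other 8 LHb libraries, whose range is grey, beside the range of the 3 naive low FST libraries (blue). Klhl11 at 15% and Slc9a7 at 21.9% lie near the blue bars, while Shc3 at 97.8% and Hipk2 at 120% lie within the grey ones.

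Correlations between the genes on log2 CPM rested in part on that library. Over the 9 libraries outside naive low FST, the median Pearson r of the 45 gene pairs was 0.482, ranging from -0.340 to 0.995. Among Aff2, Slc9a7, Klhl11, Zkscan16 and Ghrl the median of 10 pairs was 0.813. Without CRS low FST 1 the medians were 0.486 over the 45 pairs and 0.514 over those 10, so the higher value of those 5 genes, which are low in that library, rests on it. The points share libraries and depth, and the values are descriptions.

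Stress was compared in LHb without the naive low libraries, so that the test left out the contrast that chose the genes. None of the 10 genes differed between CRS and naive high FST past the threshold of an adjusted p of 0.05 (edgeR quasi-likelihood test). The test called 0 of 22766 genes (0%), with 2018 genes at an unadjusted p under 0.05, and DESeq2 called 142 genes, none of them among the 10. Hipk2 came closest, with the CRS libraries at 10.9 to 15.2 FPKM and naive high FST at 8.98 to 11.1 FPKM, which overlap. Its log2 fold change was 0.27 ± 0.12 (SE), with an adjusted p of 0.560. The other 9 genes lay between -0.19 (Klhl11) and 0.025 (Pdpr), and Shc3 was at -0.0034 ± 0.10 (SE). Between CRS high FST and CRS low FST, edgeR also called 0 of 22766 genes (0%), with 465 at an unadjusted p under 0.05, and DESeq2 called 2. The largest difference in the set was that of Aff2, 0.52 ± 0.24 (SE) with an adjusted p of 1.0, and 0.30 ± 0.20 without CRS low FST 1. Values of 0.46 for Klhl11, 0.40 for Slc9a7 and 0.40 for Zkscan16 became -0.02, -0.04 and 0.06 without that library.

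In the 5 other regions the question was whether stress changed these genes, which had been picked in other tissue. edgeR called 0 genes (0%) in each region, and none of the 10 passed. Genes with an unadjusted p under 0.05 numbered 1330 of 20224 in vHippo, 325 of 20124 in VTA, 442 of 20275 in NAc, 314 of 20064 in mPFC and 1896 of 20206 in LH, and DESeq2 called 34, 12, 2, 36 and 342 genes in that order. Hipk2 had 4.84, 10.1 and 3.41 FPKM in CRS vHippo and 2.81, 2.52 and 2.60 FPKM in naive vHippo. Every CRS library lay above every naive one, and replicate 2 of CRS stood far above the rest. The log2 fold change was 1.18 ± 0.34 (SE) with an adjusted p of 0.750 by edgeR, against 0.0455 by DESeq2, and it was 0.66 ± 0.15 with an adjusted p of 0.722 without CRS replicate 2. Shc3 had 3.80, 6.19 and 4.45 FPKM in CRS vHippo and 3.55, 2.88 and 3.46 FPKM in naive vHippo, which did not overlap either. Its log2 fold change was 0.53 ± 0.17 (SE), with an adjusted p of 0.750 by edgeR, and 0.34 ± 0.13 without CRS replicate 2. On CPM, Shc3, Hipk2 and Faxc were the genes of the set with all 3 CRS vHippo libraries above the naive ones, an order found for 6.70% of all genes, but Faxc overlapped on FPKM, at 4.95 to 5.81 in CRS vHippo and 4.50 to 4.98 in naive vHippo. CRS vHippo replicate 2 was the highest of the 6 libraries for 7 of the 10 genes. The share of all genes highest there was not counted, and 25.6% of all genes were lowest there. Oligodendrocyte markers summed to 277 to 1171 FPKM in CRS vHippo and 203 to 291 FPKM in naive vHippo. The part of those markers in the levels of Hipk2 and Shc3 was not tested. Changes in the other 8 genes in vHippo were small, from -0.26 for Aff2 and -0.083 for Ghrl through 0.015 for Zkscan16, 0.090 for Slc9a7, 0.16 for Faxc, 0.17 for Pdpr and 0.18 for Acvr2b to 0.24 for Klhl11 on the log2 scale, and none passed.

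Zkscan16 had 24.4, 34.8 and 26.6 FPKM in CRS LH and 16.1, 9.01 and 20.4 FPKM in naive LH. The groups did not overlap, an order shared by 7.45% of genes in that region. Its log2 fold change was 0.82 ± 0.30 (SE), with an adjusted p of 0.461 by edgeR, and 0.53 ± 0.18 without naive LH replicate 2. In the same region the log2 fold change was -0.55 ± 0.27 (SE) for Shc3 (adjusted p 0.580 by edgeR), -0.15 for Hipk2 and -0.045 for Pdpr, and lay between 0.027 (Ghrl) and 0.42 (Acvr2b) for Faxc, Aff2, Slc9a7, Klhl11 and those 2 genes. These values rest on single libraries, since without CRS LH replicate 3 that of Shc3 was -0.31 and Hipk2 (0.13) and Pdpr (0.12) were above 0. Without naive LH replicate 2, Acvr2b was at 0.13, and Slc9a7 (-0.06), Faxc (-0.13) and Aff2 (-0.08) were below 0. Oligodendrocyte markers summed to 632 to 839 FPKM in CRS LH and 933 to 2167 FPKM in naive LH, microglia markers to 46.8 to 53.1 and 58.1 to 61.9 FPKM, and choroid plexus markers to 6.35 to 11.2 and 17.2 to 25.3 FPKM. The part of these markers in the LH values was not tested. Acvr2b had 0.824, 0.837 and 0.646 FPKM in CRS VTA and 0.884, 0.997 and 0.957 FPKM in naive VTA. All CRS libraries lay below the naive ones, as for 2.89% of genes, and the log2 fold change was -0.32 ± 0.22 (SE) with an adjusted p of 1.0. Ghrl was at 0.45 ± 0.53 (SE) in VTA and Slc9a7 at 0.23 ± 0.56, errors wider than the values, and Shc3, Hipk2, Faxc, Aff2, Pdpr, Zkscan16 and Klhl11 lay between -0.062 and 0.099. Without naive VTA replicate 2, Shc3 was at -0.39, Hipk2 at -0.36, Pdpr at -0.30, Klhl11 at -0.26, Faxc at -0.22 and Aff2 at -0.21. The values near 0 of these genes therefore rest on that library. Without it Zkscan16 stayed above 0, at 0.12, and Slc9a7 went from 0.23 to -0.14, and none of these genes passed the threshold. In NAc no gene of the set had groups free of overlap on CPM. Over all genes there, 3.34% had all CRS libraries above the naive ones and 3.71% had them below. On FPKM the Faxc groups did not overlap, at 4.15 to 4.65 in CRS NAc and 4.81 to 5.44 in naive NAc. Acvr2b lay at 0.739, 1.04 and 1.27 FPKM in CRS and 1.03, 1.25 and 1.24 FPKM in naive libraries. The log2 fold changes in NAc ran from -0.19 for Ghrl to 0.27 for Klhl11, with Hipk2 at -0.18 and Shc3 at 0.15, and those of Faxc, Aff2, Pdpr, Slc9a7, Zkscan16 and Acvr2b were negative and within that range. Pyramidal neuron markers of the cortex summed to 98.5, 83.9 and 3.08 FPKM in CRS NAc and 256, 2.56 and 5.58 FPKM in naive NAc. Without naive NAc replicate 1 the log2 fold change was 0.32 for Shc3 and -0.01 for Hipk2, and the part of those markers was not tested. A test of whether the stress effect differed between the 5 regions called 0 of 24244 genes (0%) by edgeR, with 1074 at an unadjusted p under 0.05, and 33 by DESeq2. The lowest unadjusted p in the set was 0.154, for Shc3 (adjusted p 1.0).

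In mPFC, all 10 genes were lowest in the same library. Shc3 had 1.61, 7.26 and 5.52 FPKM in CRS mPFC and 10.1, 8.91 and 5.53 FPKM in naive mPFC. Hipk2 had 0.696, 4.03 and 6.73 FPKM in CRS mPFC and 3.98, 3.76 and 3.18 FPKM in naive mPFC. Acvr2b had 0.123, 0.983 and 1.41 FPKM in CRS mPFC and 1.23, 0.827 and 0.750 FPKM in naive mPFC. For each of these genes the lowest of the 6 libraries was CRS replicate 1, and the same held for the other 7, so that 10 of 10 genes were lowest there, against 21.4% of all 24244 genes. The median of the other 5 libraries exceeded that library by 7.99-fold for Acvr2b, 7.82-fold for Aff2, 7.34-fold for Ghrl, 6.35-fold for Slc9a7, 5.72-fold for Hipk2 and 4.52-fold for Shc3. For Faxc, Zkscan16, Pdpr and Klhl11 it did so by 3.34-fold, 3.12-fold, 3.08-fold and 2.62-fold. Of 27 further genes with a gap above 1 in LHb that were matched in this table, 24 were also lowest in CRS mPFC replicate 1. That library had a total count of 79029360, ribosomal RNA at 0.1% of counts, the lowest of the 30 libraries, and neuron markers at 1205 FPKM. Malat1 stood at 37.3 FPKM there and at 98.4 to 347 FPKM in the other mPFC libraries, the same direction as in naive low LHb. Malat1 is itself a gene with a gap above 1 in LHb (1.54), so its low value is not separate from that group of genes. The part of these measures in the low levels was not tested.

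The mPFC comparison rests on this library. For Hipk2 the log2 fold change of CRS over naive was -0.0039 ± 0.61 (SE) with all libraries and 0.48 ± 0.27 without CRS replicate 1, and for Acvr2b it was -0.22 and 0.29. Shc3 stayed lower in CRS in both, at -0.84 ± 0.48 (SE) and -0.44 ± 0.32, with an adjusted p of 1.0 each by edgeR. With all libraries, Aff2 (-0.86), Faxc (-0.54), Klhl11 (-0.53), Zkscan16 (-0.42), Slc9a7 (-0.29) and Pdpr (-0.23) were also below 0 and Ghrl (0.47) was above, none past the threshold. Without CRS replicate 1, Pdpr (0.15) and Slc9a7 (0.18) were above 0 and Aff2 was at -0.41. CRS mPFC replicate 3 carried medial habenula markers at a summed 191 FPKM, against 17.0 to 23.8 FPKM in the other 5 libraries, and pyramidal neuron markers at 148 FPKM, against 273 to 396 FPKM. Hipk2 (6.73 FPKM) and Acvr2b (1.41 FPKM) were highest in that library, which on CPM was the highest mPFC library for 4 of the 10 genes. The part of those markers in the mPFC values was not tested.

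**Figure D3:**
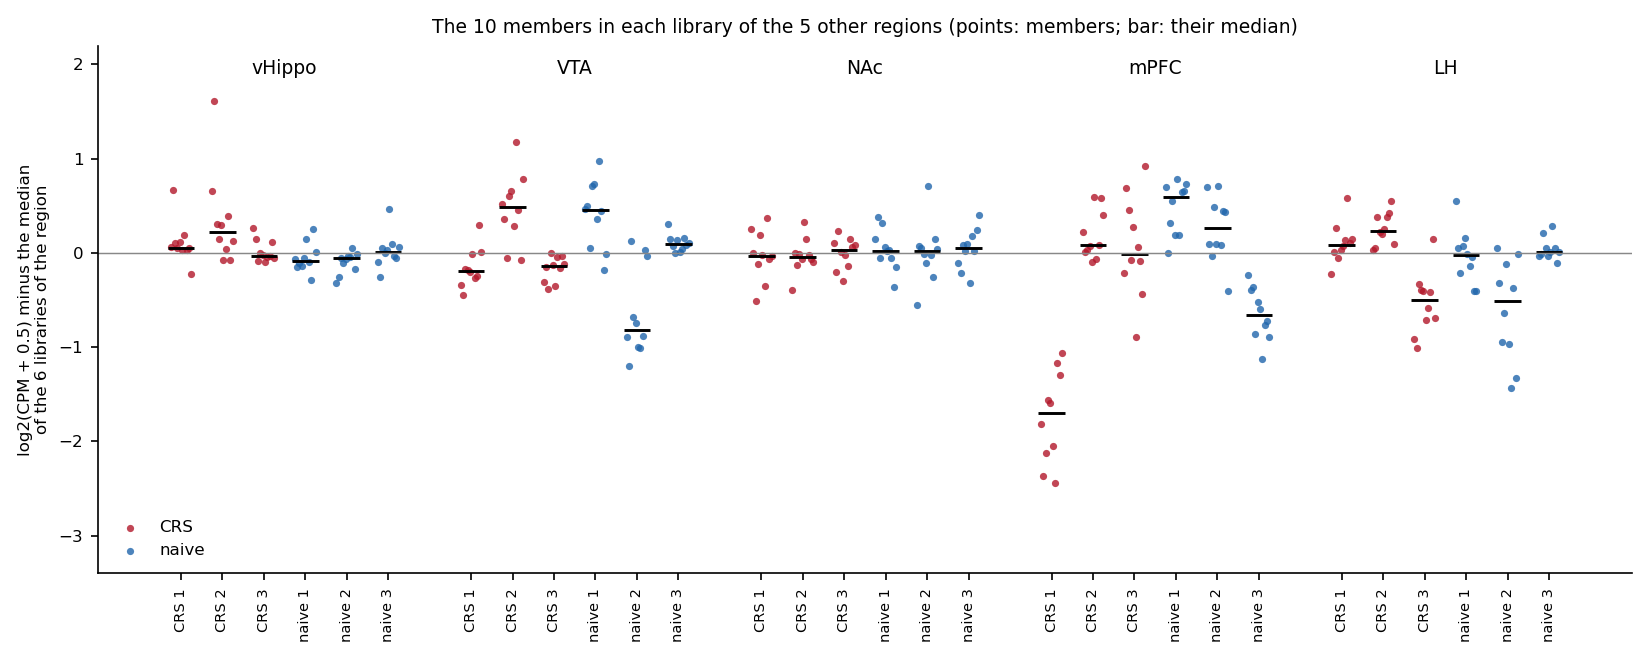
The 10 genes in each library of the 5 regions, as log2(CPM + 0.5) minus the median of the region's 6 libraries (points: genes, bars: their median). The median is -1.70 in CRS mPFC replicate 1 and -0.82 in naive VTA replicate 2.

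Naive VTA replicate 2 was the lowest VTA library for 7 of the 10 genes, against 21.1% of all genes, with a median of -0.82 on the log2 scale. Hipk2 had 6.48, 10.6 and 7.54 FPKM in CRS VTA and 11.1, 3.67 and 9.33 FPKM in naive VTA, and Shc3 had 1.91, 3.30 and 1.85 FPKM in CRS VTA and 3.05, 1.22 and 2.93 FPKM in naive VTA. That library goes against its label in part, since dopamine neuron markers summed to 32.2 FPKM there and to 261 to 1372 FPKM in the other 5 VTA libraries, and mitochondrial genes took 14.7% of counts. Peptide neuron markers of the LH reached 182 FPKM in it and 135 FPKM in CRS VTA replicate 1, against at most 4.74 FPKM in the other 4 VTA libraries. Naive LH replicate 2 and CRS LH replicate 3 were each lowest for 5 of the 10 genes, against 20.7% and 16.3% of all genes. Naive mPFC replicate 3 had a median of -0.66, and leptomeninges markers summed to 144 FPKM there and to at most 31.2 FPKM in the other mPFC libraries. In NAc and vHippo no library was lowest for more than 4. Over the 30 libraries, each centred on its region, the median Pearson r of the 45 pairs was 0.698, with all 45 pairs positive. Without CRS mPFC replicate 1 it was 0.486 over 29 libraries, with 44 pairs positive. These points share libraries and depth and are a description.

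Across naive libraries of the 5 regions, which the choice of genes did not use, Shc3 and Hipk2 differed by region and the other 8 did not pass. The F test called 26.8% of 22877 genes, and among the 10 it called Hipk2 (adjusted p 0.00425) and Shc3 (adjusted p 0.00708) by edgeR. Shc3 was highest in mPFC (8.18 ± 2.37 FPKM), then NAc (5.16 ± 0.965), LH (4.09 ± 0.841), vHippo (3.30 ± 0.364) and VTA (2.40 ± 1.02, SD, n = 3 each). Neighbours in that order overlapped throughout, and the ends did not. Against the mean of the other 4 regions, Shc3 was higher in mPFC by a log2 fold change of 1.25 ± 0.24 (SE, adjusted p 0.00462 by edgeR), a test that called 12.7% of genes and that kept Shc3 in all 15 fits leaving out a library. It was lower in VTA by -1.02 ± 0.28 (adjusted p 0.0230), where 18.2% of genes were called, but at -0.69 ± 0.25 without naive VTA replicate 2 its adjusted p was 0.0832, and without naive VTA replicate 3 it was 0.0503.

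Hipk2 ordered the regions otherwise. It stood at 8.03 ± 3.88 FPKM in VTA, 7.95 ± 1.32 in NAc and 7.40 ± 0.760 in LH, which overlapped, and at 3.64 ± 0.412 in mPFC and 2.64 ± 0.150 in vHippo (SD, n = 3 each). The mPFC libraries lay below those of LH and NAc and above those of vHippo, while the lowest VTA library, replicate 2 at 3.67 FPKM, lay among them. In vHippo it was lower than in the mean of the other 4 regions by -1.30 ± 0.27 on the log2 scale (SE, adjusted p 0.00577 by edgeR, 12.3% of genes called). In VTA it was higher by 0.73 ± 0.23 with an adjusted p of 0.0418, a call that held in 2 of 6 alternative analyses and in 2 of 15 fits leaving out a library. Without naive VTA replicate 2 it was 1.08 ± 0.15 with an adjusted p of 5.15e-04, and the highest adjusted p over the fits leaving out a library was 0.383. Acvr2b was at 1.17 ± 0.127 FPKM in NAc, 1.10 ± 0.450 in LH, 0.946 ± 0.0572 in VTA, 0.934 ± 0.256 in mPFC and 0.621 ± 0.0470 in vHippo (SD, n = 3 each). Its vHippo libraries lay below all mPFC, VTA and NAc libraries, yet the log2 fold change of -0.73 ± 0.24 (SE) had an adjusted p of 0.0657 by edgeR and 0.02 by DESeq2. In NAc the test called 6.49% of genes and in LH 8.15%, and in neither was a gene of the set among them.

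**Figure D4:**
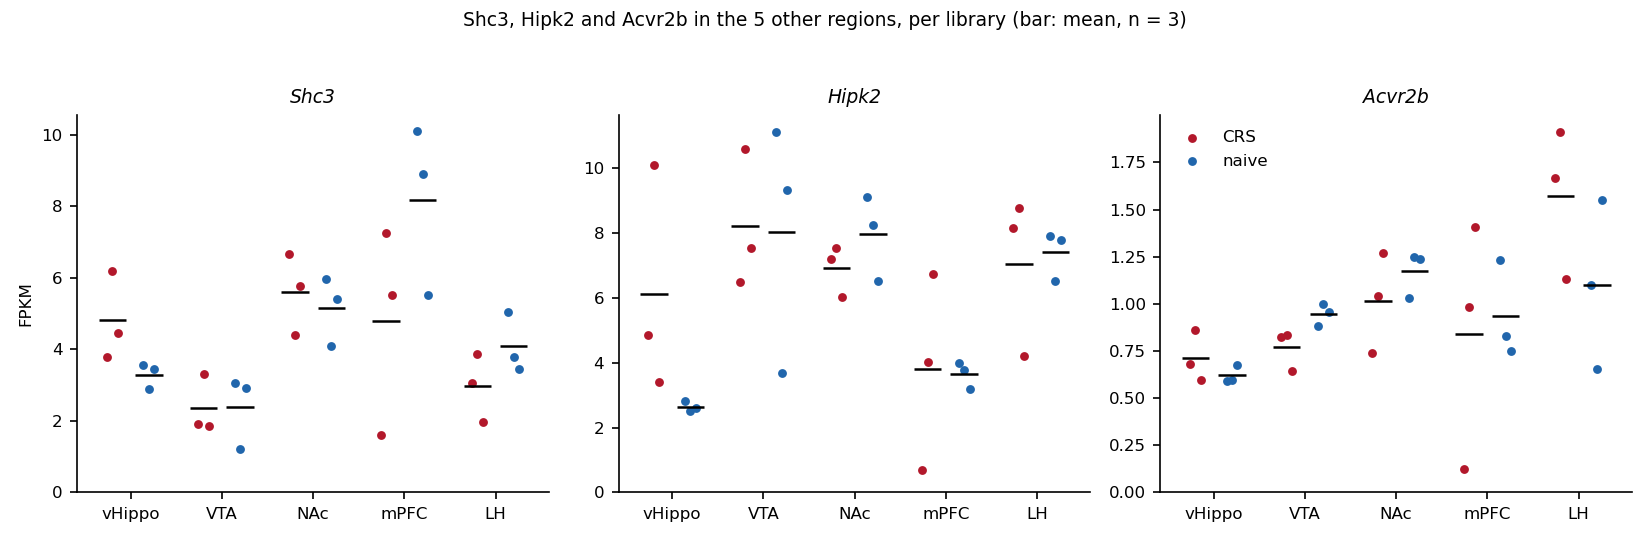
FPKM of Shc3, Hipk2 and Acvr2b in each CRS and naive library of the 5 regions (bars: means, n = 3, axes from 0). Shc3 is highest in naive mPFC at a mean of 8.18 FPKM, Hipk2 is lowest in naive vHippo at 2.64 FPKM, and CRS mPFC replicate 1 is the lowest point of the Hipk2 (0.696 FPKM) and Acvr2b (0.123 FPKM) panels.

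For the other 7 genes, neighbouring naive regions overlapped at every step. Zkscan16 was the most abundant of the set, from 21.4 ± 5.45 FPKM in NAc to 12.5 ± 1.70 FPKM in VTA (SD, n = 3 each). Klhl11 ranged from 8.34 ± 3.36 FPKM in VTA to 6.81 ± 0.758 FPKM in vHippo, and Faxc from 6.57 ± 2.78 FPKM in mPFC to 4.44 ± 1.94 FPKM in VTA. Pdpr ranged from 6.0 ± 0.383 FPKM in NAc to 4.88 ± 0.340 FPKM in LH, and Slc9a7 from 4.47 ± 2.34 FPKM in LH to 3.41 ± 1.41 FPKM in mPFC. Aff2 ranged from 2.37 ± 0.780 FPKM in LH to 1.10 ± 0.484 FPKM in NAc. Ghrl ranged from 1.36 ± 0.407 FPKM in NAc to 0.482 ± 0.0622 FPKM in VTA. Against the other 4 regions Ghrl was at -1.14 ± 0.44 (SE) in VTA on the log2 scale, with an adjusted p of 0.0898 by edgeR, 0.0353 by DESeq2 and 0.0236 by edgeR without naive mPFC replicate 3. The 2 tables were normalised separately, so a level in LHb can be set beside the other regions only roughly. On that footing all 30 libraries of the other regions lay above the naive low LHb libraries for Shc3, Klhl11 and Ghrl, and 26 of 30 did for Faxc.

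Over the 10 group means of the 5 regions, the genes most like Shc3 were Wwc2 (Pearson r 0.978), Zc3h7b (0.953) and Larp4b (0.952). Hipk2 was most like Dock1 (0.977), Kif13a (0.969) and Foxo4 (0.963), and Acvr2b most like Mbd6 (0.943), Nbeal2 (0.935) and Numa1 (0.925). The points share regions and depth.

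Pathway partners were followed in gene lists. In LHb, with the other 3 groups set against naive low FST, 4.53% of genes were called, 3.95% higher and 0.580% lower. Of 26 other genes for Shc adaptors, Trk receptors and Ras activation, 2 rose over naive low FST, the Ras inactivator Nf1 (log2 fold change 0.36 ± 0.072, SE, adjusted p 0.0124) and the kinase gene Braf (0.35 ± 0.078, adjusted p 0.0244), and the list median was 0.026, against -0.034 over all genes. Of 23 HIPK kinases, partners and targets, 2 rose, Ep300, a histone acetyltransferase (0.52 ± 0.059, adjusted p 3.4e-04), and Hipk1 (0.55 ± 0.070, adjusted p 7.3e-04), with a list median of 0.0046. Of 42 activin and BMP pathway genes, 3 rose, Smad2 (0.40, adjusted p 0.00673), Smad5 (0.35, adjusted p 0.0139) and Smad4, with Smad4, the shared partner of the receptor-regulated Smads, at 0.73 ± 0.069 (adjusted p 1.3e-04), and a list median of -0.061. Aff4, a scaffold of the super elongation complex, rose by 0.73 ± 0.11 (adjusted p 0.00228) and Hexim1 fell by 0.30 (adjusted p 0.00397). Both were among 18 genes of a list drawn around the AF4/FMR2 family and that complex. In the remaining lists Zkscan2 was called among 10 genes and Mtx3 among 5, both higher, and 0 among the 8 Slc9 exchangers, 13 genes of the pyruvate dehydrogenase complex, 23 of Cul3 ligases and 7 of the ghrelin system, by edgeR. The contrast with naive low FST also chose the set, and each list was drawn around a gene of it. These calls are therefore a description and no test of a pathway. Each count rests on at most 3 genes, and none of these genes was called for stress in any region, where edgeR called 0 genes.

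Among naive regions the F test called 10 of the 26 Shc and Trk list genes, 6 of 23 HIPK list genes and 19 of 42 activin and BMP list genes, against 26.8% of all genes. In vHippo, where Hipk2 was low, 2 of the 23 HIPK list genes were called, both higher than in the other 4 regions (6.71% of all genes were called higher there and 5.56% lower), the kinase gene Dyrk2 (log2 fold change 1.33 ± 0.22, SE, adjusted p 0.00136) and the corepressor gene Ctbp2 (0.79, adjusted p 0.0434). The activin and BMP list had 8 of 42 called in vHippo, 6 of them higher, which included the other type II receptor gene Acvr2a (1.07 ± 0.19, adjusted p 0.00252), Smad3 (1.29 ± 0.15, adjusted p 1.2e-04) and the BMP antagonist Chrd (2.28 ± 0.24, adjusted p 5.5e-05). In mPFC, where Shc3 was high, 5 of 26 Shc and Trk list genes were called, 2 higher and 3 lower (7.44% and 5.29% of all genes), with Gab1 at -1.11 (adjusted p 0.0236), and a list median of 0.0040 against 0.016 over all genes.

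Gene structure set the 10 apart from coding genes only in part. Their median span was 53978 bp, against 23040 bp over 16954 coding genes, but it ran from 3762 bp for Ghrl to 507744 bp for Aff2. The median 3′ UTR of the longest coding transcript was 352 nt for the 10 genes and 1125 nt over those coding genes. It ran from 115 nt for Shc3 to 3748 nt for Hipk2. That transcript was shorter than the length implied by counts and FPKM for all 10 genes. The difference was largest for Faxc (2627 against 8580 nt) and smallest for Klhl11 (2393 against 2457 nt), with Shc3 at 1537 against 4780 nt. These UTR lengths are therefore those of the annotation. The transcript length implied by counts and FPKM had a median of 4421 nt for the 10 genes, against 4554 nt over those coding genes. In LHb the median was 3949 nt over all genes tested and 7810 nt over the 1045 genes with naive low FST below the other 9. Over the 39 genes with a log2 gap above 1 it was 3698 nt.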

How the data were processed

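Poly-A RNA-seq libraries of mouse brain (42) were analysed. The tools named in the submitters' processing notes are HISAT2 2.0.4, StringTie 1.3.4d, cutadapt 1.9 and edgeR (no version), and the build named there is GRCm39. The authors deposited whole-number read counts per gene, not normalised, and FPKM per gene, normalised per library, per the file headers. How reads were counted, and whether strand was used, is not given in the sources used here. Gene starts equalled GENCODE M21 (GRCm38) for 99.5% of 40748 genes of the 5-region table and for 2.18% of 34900 genes of the LHb table, so coordinates are GRCm38 from the 5-region table alone. A further 18 count columns matched no sample and were not used.

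Groups came from the sample titles. The 10 genes and all gene lists were chosen with earlier results of these data known. The tests on counts used edgeR (version 4.0.16, under R 4.3.3; TMM, filterByExpr, quasi-likelihood, two-sided, adjustment by Benjamini-Hochberg over all genes tested, threshold 0.05), with group means and no block. LHb stress contrasts used 9 libraries, each region's stress contrast its own 6, region differences the 15 naive libraries and the stress-by-region test all 30. DESeq2 1.42.0, limma 3.58.1 on log2(FPKM + 0.1) and log2(FPKM + 1), no filter, RLE size factors, a replicate block and leaving out each library were alternatives. Gaps used log2(CPM + 0.5). Levels are FPKM with the SD over libraries, which at 53143878 to 81384893 counts per library puts the error for most of the genes in the spread between libraries, with Ghrl in naive low FST limited by counting. All 10 genes are named or covered by a range in each comparison; the 3 largest gaps outside the set are named; of each list, up to 4 genes past the threshold with the smallest p are named. Only named lists and markers were summed, and FST class is not analysed outside LHb. Values of 1 gene of the Shc and Trk list are not reported here.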

Additional observations from a re-analysis of the deposited data

How the results depend on the processing

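All 10 genes were lowest in the naive low FST libraries under FPKM, RLE size factors and a transcript length offset. Leaving out libraries cannot change that order (10 to 10 genes) and is no check of it. Of 170 gaps under these settings, 14 moved by more than 1 SD, and that of Klhl11 ran from 0.64 to 2.97. Genes called for stress numbered 142 (LHb CRS over naive high), 2 (CRS high over CRS low), 34 (vHippo), 12 (VTA), 2 (NAc), 36 (mPFC), 342 (LH) and 33 (stress by region) with DESeq2, against 0 with edgeR, and the cause was not tested. limma on log2(FPKM + 1) called 1 gene in LHb CRS over naive high, 1 in NAc and 27 by region. Of the 10 genes, DESeq2 called 1 for stress in vHippo (Hipk2) and 2 for vHippo against the other regions, where edgeR called 1, and it added Ghrl for VTA (adjusted p 0.0353). For VTA against the other regions 1 of the 10 was called, not 2, with no filter, the replicate block and limma at either pseudocount. DESeq2 called 2616 genes for NAc and 2980 for LH against the other regions, where edgeR called 1484 and 1864. Leaving out a library gave 0 to 9 genes for LHb CRS over naive high, 0 to 1 for CRS high over CRS low, 0 to 0 in vHippo and VTA, 0 to 1 in NAc, 0 to 4 in mPFC, 0 to 760 in LH (760 without naive LH replicate 3) and 0 to 2 by region, with 0 of the 10 genes called in each. For the naive regions it gave 1476 to 3029 genes (vHippo, 1 to 2 of the 10), 2551 to 4859 (VTA, 0 to 2), 476 to 1826 (NAc, 0 to 1), 1457 to 3515 (mPFC, 1 to 2), 617 to 2358 (LH, 0) and 4911 to 6956 (F test, 2 to 3). Same-numbered replicates of groups within a region deviated together weakly or not at all (r from -0.313 to 0.293 over 24 pairs, 6 of them over 0.1, and 12 samples best with their own number). Pairing between regions was not checked, and the replicate block is only a check. It called 1 gene in mPFC and 1 in LH for stress and 0 elsewhere, with 2610, 3902, 1393, 2570 and 1558 genes for vHippo, VTA, NAc, mPFC and LH against the others and 5676 in the F test, and it changed no other call of the 10 genes. Of 1926 values of the 10 genes that missed the threshold, 195 had the other sign under an alternative. The counts of genes lowest in CRS mPFC replicate 1 (10) and in CRS low FST replicate 1 (6) were equal under FPKM and RLE. Those alternatives, like leaving libraries out of the correlations, were chosen after seeing the data, and the median r over the 5 regions was 0.486 without CRS mPFC replicate 1 and 0.505 also without naive VTA replicate 2. With 3 libraries a group, a p above the threshold does not show that levels were equal, and the naive low values of Ghrl rest on 5 to 13 reads.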
